A study of Mus musculus with 6 samples.

Results

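Among the cell barcodes counted from mouse small-intestinal crypts, 325 of the 4890 that were kept stood out by the share of their counts that came from Reg3b and Reg3g while few other segment or goblet cell markers were counted. A barcode was kept with at least 300 genes detected and at most 25% of its counts on mitochondrial genes, out of 13191 barcodes in all. Members were chosen by these measured values: a barcode was a member when Reg3b and Reg3g together made up at least 3% of its counts, when fewer than 3 of 7 proximal enterocyte markers and fewer than 3 of 6 ileal enterocyte markers were detected, and when fewer than 4 of 7 goblet cell markers were detected. The proximal markers were Apoa4, Apoc3, Rbp2, Lct, Creb3l3, Adh6a and Guca2b, the ileal markers Fabp6, Tmigd1, Slc10a2, Slc51a, Slc51b and Slc13a1, and the goblet markers Muc2, Tff3, Agr2, Zg16, Fcgbp, Spink4 and Clca3. The members are called Reg3-high barcodes here.

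The cells came from C57BL6 mice aged 10 weeks, untreated, with EDTA used to free the crypts and trypsin to obtain single cells. The label of the knockout mice names an epithelial knockout of Ptger4, the gene of the prostaglandin E2 receptor EP4, and mice labelled flox carried the floxed gene. Each genotype had 3 Drop-seq collections from 2 biological replicates, so that collections 1 and 2 were read from their codes as replicate 1 and collection 3 as replicate 2. As to the Cre driver, the deleted part of Ptger4 and whether a replicate was 1 mouse or a pool, nothing is given in the sources used here, and p-values measure only the spread between these samples. Drop-seq captures single cells in droplets with barcoded beads and counts the 3′ ends of their polyadenylated RNA.

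Reg3b and Reg3g are secreted C-type lectins of the intestinal epithelium that act on bacteria near the mucosal surface. Reg3g is best known for binding the peptidoglycan of Gram-positive bacteria. Both genes are known to be induced in enterocytes and Paneth cells by microbial signals passing through MyD88 and by interleukin-22 through STAT3. EP4 raises cyclic AMP when prostaglandin E2 binds it.

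Reg3b and Reg3g are both on chromosome 6 of build GRCm38. Reg3b lies at chr6:78370657-78373466 on the plus strand and Reg3g at chr6:78466269-78468872 on the minus strand. The stretch from 179 to 22 bases before each RefSeq start (GRCm38.p6) is shown because both genes define the members. Capitals mark matches, on either strand, to TTCNNNGAA, the letters of a STAT dimer site, and to the core promoter element TATAAA. The Reg3b stretch is chr6:78370706-78370863 on the plus strand and the Reg3g stretch chr6:78468896-78469053 on the minus strand, both printed 5′ to 3′ in the direction of the gene. GENCODE also lists a Reg3b transcript with a start upstream of this stretch, so that the stretch lies within the gene's span, mostly in the first intron of that transcript, and another whose first exon begins in the last bases of the stretch.
Reg3b: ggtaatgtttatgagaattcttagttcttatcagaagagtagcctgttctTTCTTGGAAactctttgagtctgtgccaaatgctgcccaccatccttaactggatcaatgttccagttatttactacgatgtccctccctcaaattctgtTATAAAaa
Reg3g: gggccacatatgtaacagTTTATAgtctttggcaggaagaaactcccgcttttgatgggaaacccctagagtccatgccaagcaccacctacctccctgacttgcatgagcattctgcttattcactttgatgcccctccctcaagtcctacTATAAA

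Both stretches held TATAAA on the coding strand, at -29 to -24 in Reg3b and at -27 to -22 in Reg3g, and Reg3g held it on the opposite strand too, where it reads TTTATA at -161 to -156. Such a match was present in 8.19% of 32851 RefSeq promoter stretches of the same length. TTCNNNGAA occurred in Reg3b at -129 to -121 and not in these letters of Reg3g, against 4.27% of stretches. The metal response motifs TGCACNC and TGCGCNC, searched because Mt1 differed between genotypes, had no match in either stretch, against 6.47% and 8.70% of stretches, and no matches overlap each other. The stretches were identical at 63.5% of 156 aligned bases, with a longest shared run of 11. The 2 transcripts, of 783 and 771 bases, were identical at 74.4% of 739 aligned bases with a longest shared run of 35, and over their last 300 bases, nearest to the counted end, at 68.8% with a longest shared run of 17. Reads could be split between the 2 genes only where such a run covers them, and how reads with several matches were counted is not given in the sources used here.

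Total counts ran from 1228337 to 3146909 per collection, and the summed counts of the members from 43362 to 190416. Collections fell into 2 sets by the kept barcodes they shared. Knockout 1 shared 26 with flox 1 and 25 with flox 2, and flox 1 shared 19 with flox 2. Knockout 2 shared 8 with knockout 3 and 12 with flox 3, knockout 3 shared 17 with flox 3, and no barcode was shared between the sets. These sets cross the biological replicates for knockout 2, and results are also given within set 1 (knockout 1, flox 1 and flox 2) and set 2 (knockout 2, knockout 3 and flox 3). A single member barcode, in flox 3, was shared: it had 3132 counts, and the same barcode had 33319 counts in knockout 3. Xist, the RNA of the inactive X chromosome, was counted 1880 times in knockout 3 and 1674 times in flox 3 but 0 to 12 times in the other 4 collections, so replicate 2 differed from replicate 1 in this RNA in both genotypes.

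The Reg3 share of counts in the members chose them and is given as a description. It ran from 3.01% to 17.2% with a median of 4.58%, and 138 members were at 5% or more and 25 at 10% or more. Just inside the limit, 75 members lay between 3% and 3.5%, and just outside it 60 barcodes that met every other condition lay between 2.5% and 3%. Of 671 kept barcodes at 3% or more, 346 were not members: 206 had at least 3 ileal markers, 141 at least 3 proximal markers and 90 at least 4 goblet markers. High Reg3 counts were therefore found also outside the members, and in the summed counts Reg3b and Reg3g made up 5.35% in the members, 4.69% in the 253 ileal-marker enterocytes, 3.56% in the 252 proximal-marker enterocytes and 1.24% in all other kept barcodes. These 2 enterocyte classes hold the kept barcodes with at least 3 ileal or at least 3 proximal markers and fewer than 4 goblet markers, and 63 barcodes are in both. The other kept barcodes are all 4565 kept barcodes that are not members, so they include these 2 classes.

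Free RNA in the droplets can put counts of abundant genes into barcodes of other cells, and its part in the values here was not tested. In their summed counts, barcodes with at least 3 T or NK cell markers held 1.03% Reg3 counts, B or plasma cell-marker barcodes 0.448%, and barcodes under 100 counts 0.798%. The median share per barcode was 0% in each of these classes. Of 150 T or NK-marker barcodes 3 reached 3%, and of 187 B or plasma-marker barcodes 0 did, which allows a share of up to 1.95% by the exact 95% binomial interval, counting error only. In knockout 1 the T or NK-marker barcodes reached 2.91%.

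The marker limits of the rule lean on depth. The median member had 1276 counts and 724 genes, against 1272 counts in the other kept barcodes but 2009 in the proximal-marker and 2624 in the ileal-marker enterocytes. With each barcode thinned to 500 counts, 528 of 4603 barcodes met the rule, among them 288 of the 313 members deep enough to thin. No proximal marker was detected in 223 members, 1 in 73 and 2 in 29. For the ileal markers, 57 members had 0, 153 had 1 and 115 had 2. No doublet caller was run and no doublets were removed. The deepest member had 14396 counts.

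The label of enterocytes was checked against marker lists. Fibroblast and endothelial markers were at 0 for all 7 measured genes, 10 of 15 T or NK markers were at 0 with 0 to 57.0 CPM (counts scaled to a common total of 1000000 per collection and class) summed over the list in a collection, and 6 of 11 B or plasma markers were at 0 with 0 to 46.1 CPM. Lgr5, the marker of crypt base stem cells, was at 0 in the members of all 6 collections, as were Ascl2, Soat1 and Tnfrsf19. Of 25 enterocyte markers only Slc2a5 was at 0. Yet these 25 summed to 4952 CPM in the members (range 3629 to 6234 over the collections), far below the 37591 CPM of the proximal-marker enterocytes. The other kept barcodes held 5841 CPM, but they include the proximal- or ileal-marker enterocytes, which held 24832 CPM. Whether the remaining barcodes lay above or below the members cannot be read from that sum. The share of thinned barcodes with several enterocyte markers, given below, was 33.5% in the members and 19.2% in the other kept barcodes. The members thus held counts of these genes at a level far below the marker-positive enterocytes, and the part of free RNA in these counts was not tested. The members are called by their rule.

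The 3 label markers that the rule did not use were each present. Car4, a membrane carbonic anhydrase, stood at 297, 152 and 277 CPM in knockout members and 248, 300 and 336 CPM in flox members. That was above the other kept barcodes in 6 of 6 collections, with a median log2 ratio of 1.02. For Lgals3, a galectin, the values were 411, 704 and 162 CPM in knockout and 539, 553 and 315 CPM in flox, above the other kept barcodes in 5 of 6 collections. Akr1c19, an aldo-keto reductase, was sparse, with 54 counts in all, and at 79.9, 41.4 and 46.2 CPM in knockout and 194, 231 and 63.0 CPM in flox. After thinning to 500 counts, Car4 was counted in 11.2% of members, Lgals3 in 14.4% and Akr1c19 in 7.03%, against 4.69%, 7.48% and 2.12% of the other kept barcodes and 4.41%, 5.88% and 0.735% of T or NK-marker barcodes. The level of Car4 in the ileal-marker enterocytes, 311 CPM, and that of Lgals3, 603 CPM, were not below those of the members (268 and 447 CPM).

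The contrast of members with other barcodes follows from how they were chosen, so it is described without a test. Of 769 genes with at least 200 CPM in the members, 182 (23.7%) were higher than in the other kept barcodes in 6 of 6 collections, and of 787 genes with at least 200 CPM in the others, 161 (20.5%) were lower in 6 of 6. The median log2 ratio over 2960 genes of at least 50 CPM was 0.014, on a scale of CPM plus 10. Reg3b and Reg3g, from the rule, had the highest ratios, 2.05 and 1.98.

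Fabp6, the ileal bile acid binding protein, followed at 1.52 although the rule limits how many ileal markers a member may have. It stood at 11455, 18903 and 6557 CPM in knockout 1 to 3 and at 11680, 8717 and 3760 CPM in flox 1 to 3. The collections were unequal: knockout 2 was the highest and flox 3 the lowest. Fabp6 was counted in 58.8% of members after thinning, in 77.8% of ileal-marker and 17.5% of proximal-marker enterocytes, in 22.8% of the other kept barcodes and in 15.4% of T or NK-marker barcodes. In knockout 1 the T or NK-marker barcodes held 12916 CPM of Fabp6, above the members there. For this value they include the 1 member with at least 3 T or NK markers. Nr1h4, which encodes the bile acid receptor FXR, was also higher than in the other kept barcodes in 6 of 6 collections, with a median log2 ratio of 1.13 and 184 CPM in the members. Of the 6 ileal markers of the rule, 3 were higher than in the other kept barcodes in 6 of 6 collections and 2 lower. Slc51a and Slc51b came next after Fabp6 in level, whereas Slc10a2, the ileal bile acid importer, was at 0, and Tmigd1 had 1 count.

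Further genes with the highest ratios were Apol10a (1.35), Cdkn2b (1.15), which encodes a cyclin-dependent kinase inhibitor, Bcl2l15 (1.13), a member of the Bcl2 family, Chp2 (1.11), Id3 (0.99), an inhibitor of basic helix-loop-helix factors, and Glod5 (0.91). Pycard, which encodes the inflammasome adaptor ASC, was at 2750, 2732 and 1928 CPM in knockout members and 2187, 3229 and 1948 CPM in flox members, with a median log2 ratio of 0.89 to the other kept barcodes. It was counted in 62.6% of thinned members, 34.5% of the other kept barcodes and 14.7% of T or NK-marker barcodes. Il18, a cytokine that the inflammasome matures, was higher in 6 of 6 collections with a ratio of 1.26 and 141 CPM. Krt19, a keratin of simple epithelia, had a ratio of 0.88, the protease inhibitor gene Serpinb1a 0.84, the glutathione transferase gene Mgst1 0.83 and the sulfotransferase gene Sult1b1 0.82.

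Of the 10 lowest genes, 7 were the goblet markers of the rule. The other 3 were Ccl6, a chemokine gene (log2 ratio -4.56), Igkc, of immunoglobulin light chains (-4.27), and Chgb, of enteroendocrine granules (-4.20).

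Against the 442 proximal- or ileal-marker enterocytes, the members were higher for genes of the cell cycle and lower for genes of lipid handling. Of 769 genes, 222 (28.9%) were higher in 6 of 6 collections, and of 814 genes, 250 (30.7%) were lower. Top2a, a topoisomerase of dividing cells, had the highest median log2 ratio, 2.09, with 238 CPM in the members and 55.4 CPM in the enterocytes. Mki67, a marker of cycling cells, followed at 1.75 with 359 and 101 CPM. The others were Ranbp1 (1.73), Clca4 (1.72), the cyclin gene Ccnd1 (1.61), Ptma (1.59), the histone gene H2afz (1.51), the splicing gene Snrpd2 (1.45), Csrp2 (1.45) and Hmgb2 (1.43).

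Fabp1, the fatty acid binding protein of proximal enterocytes, was not in the rule and had the lowest ratio, -5.09, with 68.4 CPM in the members. Apoa1, an apolipoprotein gene, was lower by a ratio of -3.50, with 648 CPM in the members. Fabp2, another fatty acid binding protein gene, had -2.77. Areg, an epidermal growth factor receptor ligand, had -3.13, and Atf3, a stress-induced transcription factor gene, -2.81. The remaining 5 of the 10 lowest, Apoa4, Creb3l3, Rbp2, Adh6a and Apoc3, were markers in the rule.

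In their cycling genes the members therefore lay between the marker-positive enterocytes and the other kept barcodes, which include those enterocytes. The 20 cycling markers summed to 2832 CPM in the members, 806 CPM in proximal-marker and 1244 CPM in ileal-marker enterocytes, and 4120 CPM in the other kept barcodes. After thinning, at least 3 cycling markers were detected in 43 of 313 members (13.7%), in 1.59% of proximal-marker and 4.37% of ileal-marker enterocytes, and in 24.6% of the other kept barcodes. Lipid absorption genes summed to 2609 CPM in the members, against 30296, 13321 and 4008 CPM in these classes in turn. The last value includes the marker-positive enterocytes. Whether the remaining barcodes lay above or below the members cannot be read from it. The lipid list holds Apoa4, Apoc3 and Rbp2, which are proximal markers of the rule, so these sums follow in part from the selection. At least 3 enterocyte markers were detected in 33.5% of thinned members, against 97.6%, 69.4% and 19.2%.

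**Figure D1:**
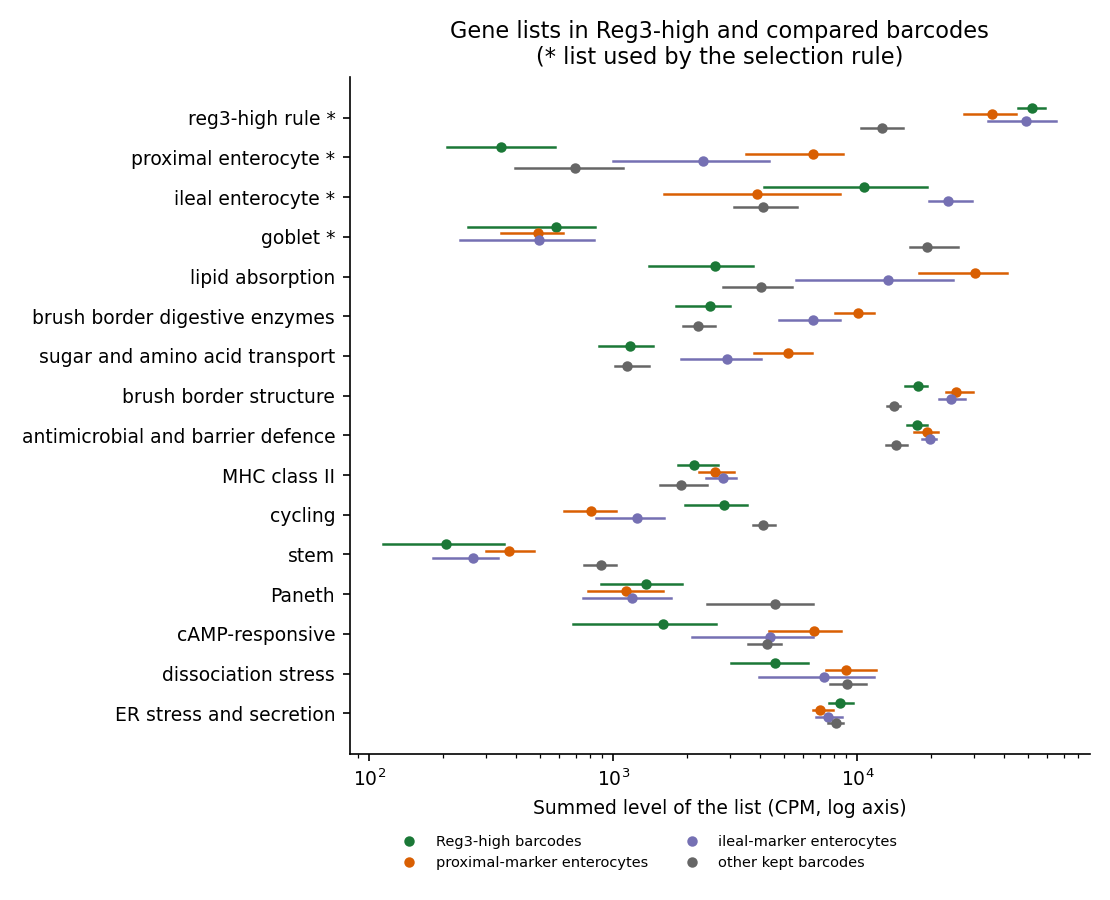
Summed level of marker and pathway lists (CPM, log axis) in 4 classes of barcodes, with points for the mean and lines for the range over 6 collections. Lists with an asterisk are the marker lists of the rule. The lipid absorption list also holds the rule markers Apoa4, Apoc3 and Rbp2, and the digestive enzyme list holds Lct. The other kept barcodes include the marker-positive enterocytes. The Reg3-high barcodes lie between the marker-positive enterocytes and the other kept barcodes for the cycling list, at 2832 CPM.

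Other lists are given by the number of members of the list that were higher or lower than in the other kept barcodes in 6 of 6 collections, beside the 23.7% and 20.5% of all genes above, and the genes of low level in them are included. Of 28 antimicrobial and barrier genes, 6 were higher and 2 lower, with a median log2 ratio of 0.09. They summed to 17625 CPM in the members and 14462 CPM in the other kept barcodes. The sums were 19312 CPM in proximal-marker and 19826 CPM in ileal-marker enterocytes, so the list was not particular to the members. This list does not hold Reg3b or Reg3g. The higher ones were Il18, Duoxa2, which matures the hydrogen peroxide producing enzyme DUOX2 (0.91), Lypd8, a protein that binds flagellated bacteria (0.70), the galectin gene Lgals4 (0.63), the membrane mucin gene Muc3 (0.59) and Gsdmc2, a gasdermin gene (0.38). Pigr, the carrier of secretory IgA, was higher in 3 and lower in 3 collections at 5880 CPM, and Retnlb was at 0.

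Of 20 brush border structure genes 6 were higher and 2 lower, of 17 digestive enzyme genes 3 and 2, and of 20 lipid absorption genes 1 and 5. The digestive enzyme list holds the rule marker Lct, and the lipid list Apoa4, Apoc3 and Rbp2. Brush border structure genes summed to 17660 CPM in the members, below the 25470 CPM of proximal-marker and 24104 CPM of ileal-marker enterocytes. For the interferon list of 22 genes, 2 were higher and 4 lower, and the immunoproteasome genes Psmb8 (0.73) and Psmb9 (0.94) were the higher ones. That list summed to 1201 CPM in the members, 1903 CPM in proximal-marker and 1580 CPM in ileal-marker enterocytes. No MHC class II gene was higher and 1 of 9 was lower. Of 21 genes of the interleukin-22 and STAT3 pathway 1 was higher and 3 lower, and of 20 genes of the MyD88 and NF-kB pathway 0 and 3. Ccl25, the chemokine of the small-intestinal epithelium, was higher in 6 of 6 (0.77).

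No gene was higher in 6 of 6 collections in the stem, Paneth, Notch, cAMP-responsive and dissociation stress lists. Of 14 stem markers 13 were lower in 6 of 6, with 207 CPM in sum against 888 CPM in the other kept barcodes. Of 15 measured Paneth markers 9 were lower. Defa24, a defensin gene, was counted in 28.1% of thinned members but 54.4% of T or NK-marker barcodes. It was counted in 27.3% of proximal- or ileal-marker enterocytes and 40.7% of the other kept barcodes. The part of free RNA in these counts was not tested. Of 22 cAMP-responsive genes 13 were lower, with a median of -1.25, and of 20 dissociation stress genes 15 were lower, with a median of -1.01. Fos and Atf3 are in both lists, with median log2 ratios of -1.48 and -1.98.

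The members were not uniform. Of the 325, 100 had at least 3 cycling markers and a median of 1999.5 counts, and the other 225 had 1136 counts, so that depth differs between these ranges of a score. Fabp6 was counted in 226 members (69.5%). It was absent from 17.8%, 19.4% and 34.0% of members in knockout 1 to 3 and from 19.1%, 27.6% and 49.5% in flox 1 to 3. Replicate 2 had the highest share without Fabp6 in each genotype. Members without Fabp6 counts held 1785 CPM of Apoa1 against 459 CPM in those with Fabp6, and 617 CPM of Areg against 132 CPM (Reg3 counts left out of the total). Members with under 3 cycling markers held 1507 CPM of Apoa1 against 140 CPM in those with at least 3, and 484 CPM of Areg against 50.5 CPM, on the same scale. Both splits pool the 6 collections, and flox 3 gave 46 of the 99 members without Fabp6 counts. Flox 3 members also held 102 counts of Areg, against 0 to 21 in each other collection, and the highest Apoa1, 1365 CPM. Differences between collections and between kinds of members cannot be told apart in these pooled values.

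Within the members, Reg3b and Reg3g were correlated across barcodes thinned to 500 counts, with a Spearman rho of 0.401 over 313 barcodes, as a description, since the rule set a limit on their sum. The genes most like their sum, out of 219 genes counted in at least 20% of members, were weakly related: S100a10 and Calml4 at 0.20, Lypd8 at 0.17, and Plac8, Fabp6 and Mgst3 at 0.16. In such sparse counts these values are no finding.

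Reg3b made up 57.1% of the 2 genes' counts in the members. By collection this share was 54.6%, 58.9% and 55.0% in knockout and 55.3%, 55.6% and 59.2% in flox. In the proximal-marker enterocytes it was 65.8%, higher than in the members of the same collection by 6.66 to 13.1 percentage points in 6 of 6 collections. In the ileal-marker enterocytes it was 61.2%, higher by 2.46 to 10.2 points in 6 of 6. The other kept barcodes, at 56.1%, were higher in 2 collections and lower in 4. Within the members the share was 52.9% at a Reg3 level of 3 to 4%, 57.1% at 4 to 6% and 59.1% at 6% or more.

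**Figure D2:**
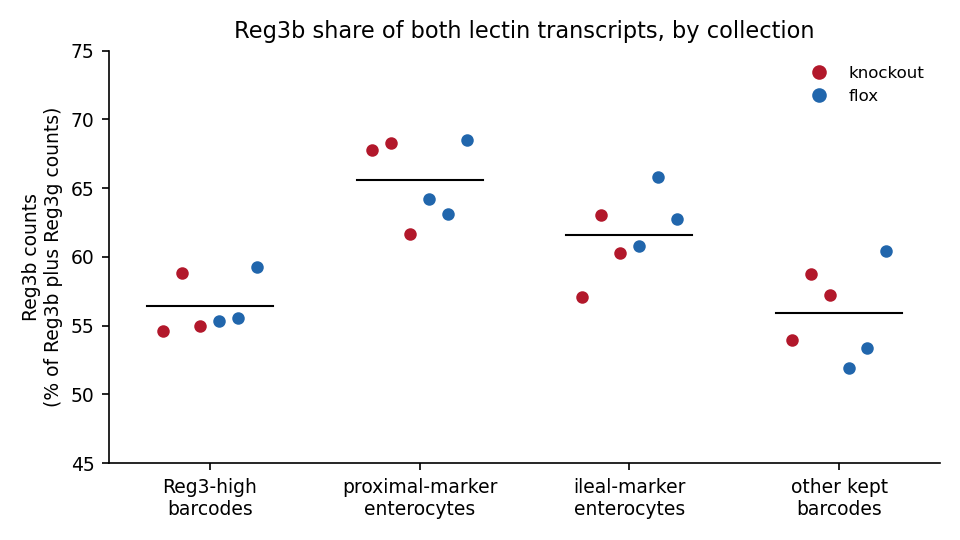
Reg3b counts as a percentage of Reg3b plus Reg3g counts (axis from 45 to 75%) in 4 classes of barcodes, with 1 point for each of 6 collections coloured by genotype and a line at their mean. The proximal-marker enterocytes lie above the Reg3-high barcodes in 6 of 6 collections.

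The share of Reg3-high barcodes overlapped between the genotypes. They made up 9.68% (95% exact binomial interval 7.67 to 12.02), 5.12% (3.61 to 7.02) and 4.79% (3.54 to 6.32) of kept barcodes in knockout 1 to 3. In flox 1 to 3 the shares were 4.46% (3.30 to 5.89), 6.13% (4.14 to 8.69) and 10.0% (8.18 to 12.2). The ranges overlap, with knockout 1 and flox 3 the highest. Per biological replicate the share was 6.14% ± 1.90 in knockout and 7.51% ± 3.58 in flox (SD, n = 2), a difference of -1.38 points with a two-sided exact permutation p of 0.667, where 0.333 is the smallest p that 2 against 2 can give. Within set 1 the knockout share was 9.68% against 4.98% in flox, and within set 2 it was 4.93% against 10.0%, so the direction turned between the sets. Without flox 3 the difference was 1.16 points. Fewer cells of the class and less Reg3 RNA per cell cannot be told apart in a share set by a threshold.

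**Figure D3:**
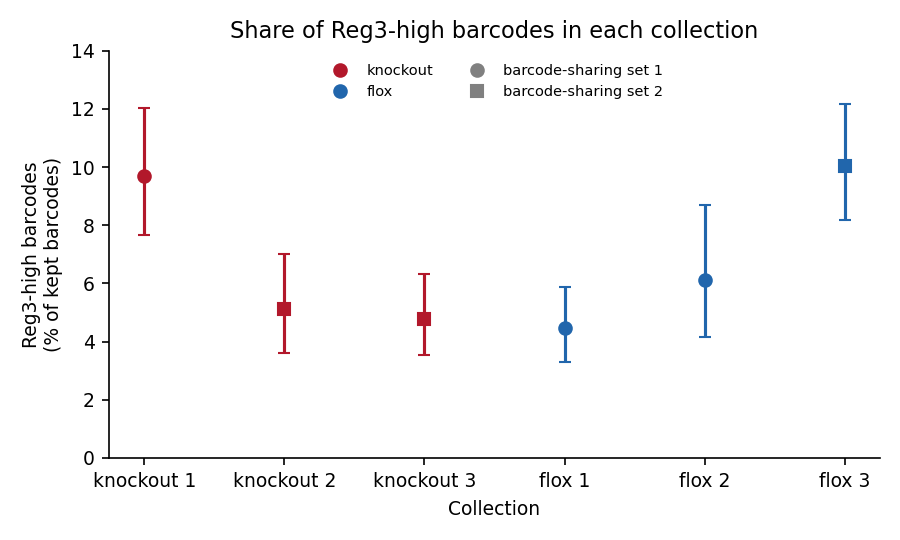
Share of kept barcodes that were Reg3-high in each of 6 collections (%, axis from 0), with exact 95% binomial intervals as error bars, colour for the genotype and marker shape for the barcode-sharing set. Knockout 1 at 9.68% and flox 3 at 10.0% are the highest.

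Summed counts of the members were compared between 2 knockout and 2 flox biological replicates with edgeR's quasi-likelihood test, in which 2546 genes passed the filter on low counts. With Benjamini-Hochberg adjustment 2 genes were higher in knockout (0.0786% of those tested) and 0 were lower, while 92 had an unadjusted p under 0.05, 46 in each direction. DESeq2 called 1 gene (0.0393%). In 103 genes (4.05%) all 3 knockout collections lay above all 3 flox collections, and in 118 (4.63%) below.

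Ptger4 itself was below the filter, with 1 count in knockout 3 and 2 counts in flox 3 and 0 in the members of the other 4 collections. Its loss could therefore not be checked in these barcodes. In the other kept barcodes Ptger4 was not lower in knockout, at 18.5, 20.2 and 24.9 CPM against 12.3, 14.2 and 15.5 CPM in flox. The proximal- or ileal-marker enterocytes among them held 30.7, 13.3 and 69.3 CPM in knockout and 16.6, 10.3 and 18.6 CPM in flox. These differences were not tested, and counts at the 3′ end need not lie in the deleted part. Akr1c19 was below the filter too.

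Mt1, which encodes a metallothionein that binds zinc and copper, was the one gene that also passed with DESeq2. It lies at chr8:94179082-94180327 on the plus strand. It stood at 1232, 1656 and 1616 CPM in the knockout members and 259, 138 and 462 CPM in the flox members. Every knockout collection lay above every flox collection. The log2 fold change was 2.13 (SE 0.29, adjusted p = 0.000429, edgeR's quasi-likelihood test with Benjamini-Hochberg adjustment), and the log2 ratio was 2.43 within set 1 and 1.80 within set 2. With the Reg3 limit at 2% the adjusted p was 0.0525, and without knockout 2 it was 0.0733, with fold changes of 2.31 and 2.02.

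The difference in Mt1 was spread over the members. After thinning, Mt1 was counted in 44.1%, 52.9% and 63.8% of members in knockout 1 to 3 and in 8.70%, 8.0% and 20.4% in flox 1 to 3. Over all collections 4.41% of T or NK-marker and 6.06% of B or plasma-marker barcodes had a count. No single member barcode held more than 13 of the counts of a knockout collection. Mt1 was higher in knockout among members with at least 3 cycling markers (1179 against 257 CPM, pooled over the collections of a genotype) and among the others (1797 against 448), with Fabp6 counts (1458 against 272) and without (1662 against 493), and at Reg3 levels of 3 to 4% (1556 against 271), 4 to 6% (1284 against 368) and 6% or more (1673 against 464).

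Mt1 differed between genotypes outside the members as well. The other kept barcodes stood at 1197, 1140 and 1413 CPM in knockout and 260, 253 and 296 CPM in flox, and the proximal- or ileal-marker enterocytes at 2439, 2183 and 2896 CPM and 436, 277 and 718 CPM. T or NK-marker barcodes held 729, 403 and 50.2 CPM in knockout and 147, 183 and 129 CPM in flox. For these values they include the 1 member with at least 3 T or NK markers. The part of free RNA in the result was not tested. The interaction of class and genotype for Mt1, between members and other kept barcodes, was -0.06 on the log2 scale (SE 0.23, adjusted p = 0.998, edgeR's quasi-likelihood test). Over all 2546 genes, 0 had an adjusted p under 0.05 for the interaction and 94 had an unadjusted p under 0.05 in edgeR, the only tool used for it.

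**Figure D4:**
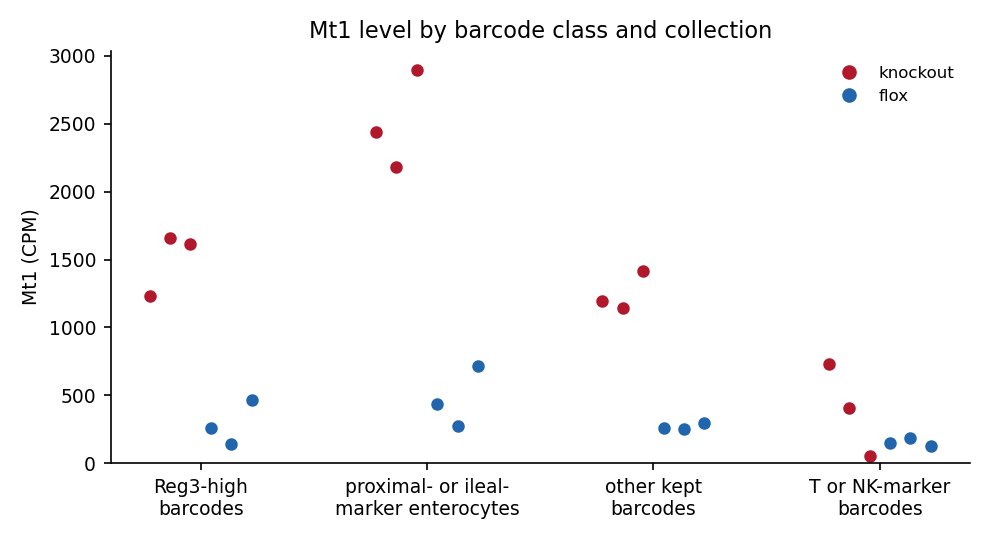
Mt1 level (CPM of summed counts, axis from 0) in 4 classes of barcodes, with 1 point for each of 6 collections coloured by genotype. The T or NK-marker barcodes include the 1 member with at least 3 T or NK markers. In the Reg3-high barcodes the knockout collections lie between 1232 and 1656 CPM and the flox collections between 138 and 462 CPM.

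Mt2, the neighbouring metallothionein gene, was at 34.2, 41.4 and 150 CPM in knockout and 10.8, 0 and 99.8 CPM in flox, with overlapping collections and a log2 fold change of 0.47 (SE 0.71) that did not pass. Mt1 and Mt2 transcripts were identical at 72.3% of aligned bases with a longest shared run of 20. Of 17 measured genes of the metallothionein and zinc list, these 2 were tested and 1 passed.

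Rn7sk, the small nuclear RNA that holds the elongation factor P-TEFb inactive, was the second gene that passed. It was at 79.9, 1035 and 162 CPM in knockout and 86.2, 0 and 78.8 CPM in flox. The collections overlap and knockout 2 stands apart: 68 of its 75 counts came from 1 barcode with 1694 counts in all. The log2 fold change of 2.37 (SE 0.45, adjusted p = 0.0333, edgeR's quasi-likelihood test with Benjamini-Hochberg adjustment) fell to 0.76 without that barcode, with an adjusted p of 0.996, and DESeq2 gave an adjusted p of 0.390. The log2 ratio was 0.39 within set 1 and 2.68 within set 2.

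The genes that define the members did not pass. Reg3b was at 30554, 34674 and 24925 CPM in knockout and 26647, 25991 and 34425 CPM in flox, and Reg3g at 25386, 24229 and 20411 CPM and 21518, 20779 and 23690 CPM. Their log2 fold changes were -0.07 (SE 0.28) and 0.03 (SE 0.26), with overlapping collections, in barcodes that had been selected for these genes. Car4 had -0.25 (SE 0.32) and Lgals3 -0.14 (SE 0.39). The Reg3b share of both genes was 55.8% ± 1.14 for knockout and 57.3% ± 2.71 for flox (SD, n = 2), a difference of -1.53 points with a two-sided exact permutation p of 0.667. Within the sets it was 54.6% against 55.4% and 57.0% against 59.2%.

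Genes with the smallest unadjusted p-values are given as values, since none had an adjusted p under 0.05 in the fit used above. That fit holds no term for the biological replicate, and results with such a term are given under the dependence on processing. Ndufaf2, an assembly factor of respiratory complex I, was at 228, 248 and 208 CPM in knockout and 75.4, 46.1 and 89.3 CPM in flox, without overlap, with a log2 fold change of 1.52 (SE 0.39, adjusted p = 0.554, edgeR's quasi-likelihood test). Hes1, a Notch target, was at 137, 290 and 266 CPM and 129, 46.1 and 131 CPM, also without overlap, at 0.97 (SE 0.35). Stmn1, which destabilises microtubules, had 1.62 (SE 0.51) with overlap. For Hes1, Stmn1 and the 5 genes with negative values below, the adjusted p was 0.999 in edgeR's quasi-likelihood test.

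Areg, a known target of cyclic AMP signalling, was at 0, 41.4 and 242 CPM in knockout and 205, 138 and 536 CPM in flox. Knockout 3 overlapped the flox collections. The log2 fold change was -1.77 (SE 0.58, adjusted p = 0.999, edgeR's quasi-likelihood test), with log2 ratios of -4.27 within set 1 and -1.76 within set 2. After thinning, 0 of 68 members had a count in knockout 1, which allows up to 5.28%, against 2.94% and 10.6% in knockout 2 and 3 and 6.52%, 8.0% and 18.3% in flox 1 to 3. Without knockout 3 its fold change was -4.18, a value that rests on 1 knockout sample, since knockout 3 is the whole of knockout replicate 2. Areg was also higher in replicate 2 than in replicate 1 in both genotypes. Proximal- or ileal-marker enterocytes held 1253, 552 and 1399 CPM of Areg in knockout and 1500, 2102 and 1734 CPM in flox. The other kept barcodes held 343, 267 and 322 CPM in knockout and 339, 354 and 530 CPM in flox. T or NK-marker barcodes, with the 1 member among them, held 29.2, 256 and 0 CPM in knockout and 502, 151 and 927 CPM in flox. The difference was thus not confined to the members, and the part of free RNA in it was not tested.

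Sowaha (-1.43, SE 0.44), Cxadr, which encodes a tight junction receptor (-1.65, SE 0.54), Nr3c1, the glucocorticoid receptor gene (-1.13, SE 0.37), and Fahd1 (-1.06, SE 0.36) had lower values in every knockout collection than in every flox collection. For Nr3c1 these were 103, 55.2 and 127 CPM in knockout and 172, 300 and 226 CPM in flox.

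**Figure D5:**
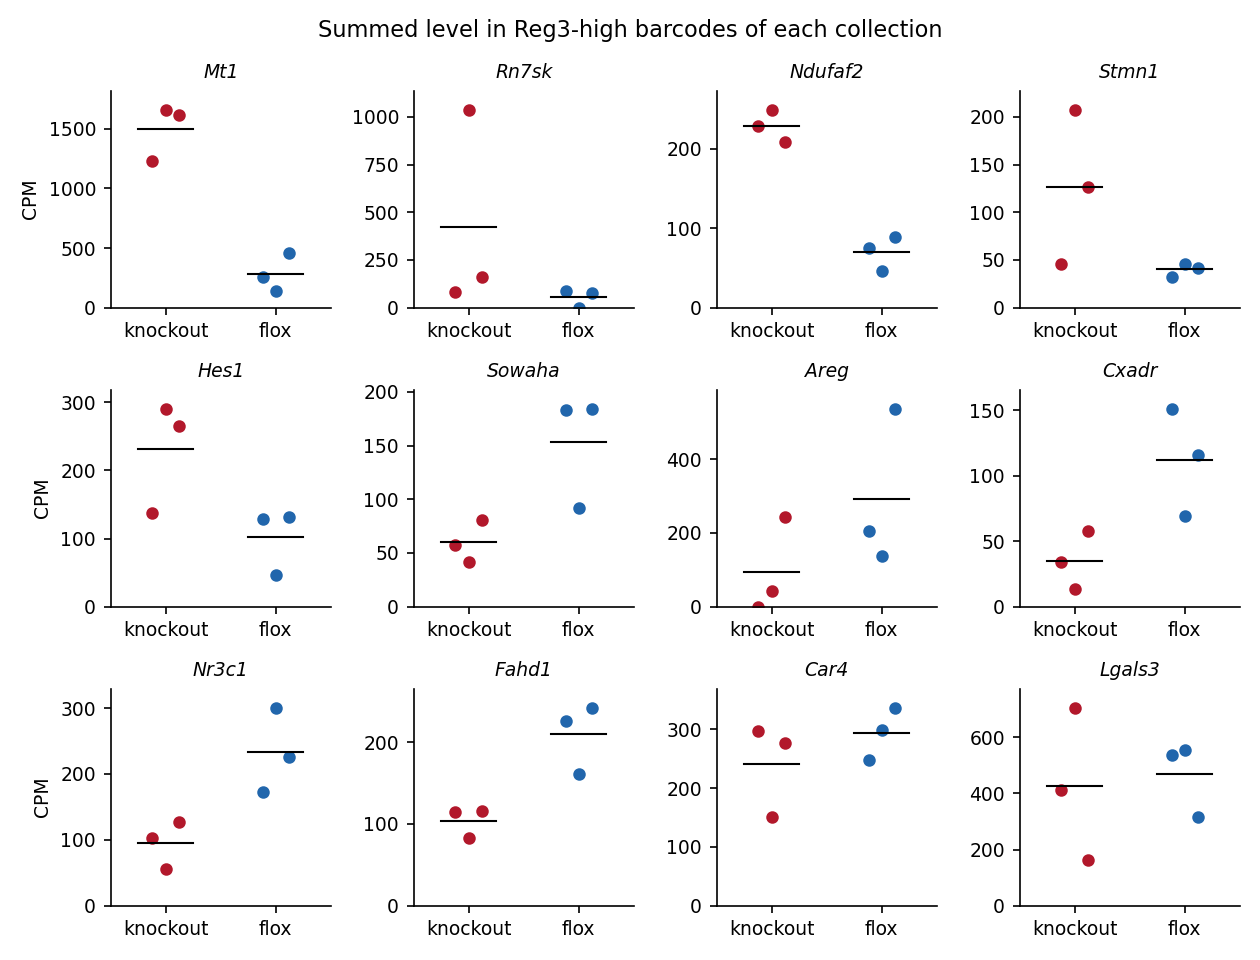
Summed level (CPM, axis from 0 in each panel) of named genes in the Reg3-high barcodes, with 1 point for each of 3 knockout and 3 flox collections and a line at their mean. Mt1 and Ndufaf2 show no overlap between genotypes, and Rn7sk is high in knockout 2 alone at 1035 CPM.

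Pathway lists are described by the genes that passed the filter on low counts, beside a median log2 fold change of -0.003 over all 2546 genes, 1264 of them above 0. Apart from Mt1, which is also in the early enterocyte progenitor list, no list gene passed the test in either direction. Of 8 tested cAMP-responsive genes 7 had values below 0, with a median of -0.74, among them Areg, Atf3 (-1.39) and Fos (-0.77), whereas Jun had 0.03. All 8 tested lipid absorption genes had values below 0 (median -0.41), as did all 6 tested Paneth genes (median -0.57). Of these, Defa24 alone was set against the immune-marker barcodes above. Apoa1 had -0.84.

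Of 15 tested genes of protein secretion and endoplasmic reticulum stress 10 had values above 0 (median 0.14), and in 3 of them, Sec61b (0.44), Sec61g (0.52) and Pdia6 (0.33), the knockout collections lay above the flox collections, as in 4.05% of all genes tested. Antimicrobial genes had 10 of 17 values below 0 (median -0.06). Of the 17, 1 had collections that did not overlap, which is near the 4.05% (higher) and 4.63% (lower) of all genes. It was Lypd8, at 2339, 2235 and 2217 CPM in knockout and 2090, 2214 and 1675 CPM in flox, with 0.27 (SE 0.23). The interleukin-22 and STAT3 list had 5 of 6 values below 0 (median -0.34), with Il18 at -0.92 (SE 0.41). Brush border structure genes had 11 of 19 below 0, digestive enzymes 6 of 10, MHC class II genes 3 of 6 and cycling genes 3 of 10.

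Fabp6 had a log2 fold change of 0.60 (SE 0.37) and Nr1h4 0.57 (SE 0.34), with overlapping collections for both. Within set 1 the log2 ratio of Fabp6 was 0.09 and within set 2 it was 1.69. No stem, enteroendocrine, tuft, T or NK or B or plasma marker had enough counts in the members to be tested, and 4 genes of the prostaglandin pathway were tested without a call.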

How the data were processed

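The authors deposited raw counts per gene and cell barcode for each collection (Drop-seq, polyadenylated RNA), without normalization. Their alignment used STAR 2.6 and build mm10, per the submitters' processing notes. How barcodes were listed, how molecular identifiers were treated and which annotation served for counting is not given in the sources used here. The tables hold 13191 barcodes and 19178 symbols, of which 17963 (93.7%) were found in a GENCODE annotation of GRCm38 used for positions only.

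The members and gene lists were chosen with earlier results of these data known. Member counts were summed per collection and divided by the sum to give CPM. For tests they were summed per biological replicate and fitted with edgeR 4.0.16 (R 4.3.3, TMM factors, filterByExpr at a minimum count of 10, quasi-likelihood test, Benjamini-Hochberg threshold 0.05). DESeq2 1.42.0 was an alternative, and an interaction model held members and other kept barcodes. A standard error is the size of the log2 fold change divided by the square root of F. The fits were tested on simulated counts. Shares were compared by exact permutation, and detection was compared after thinning to 500 counts. Intervals cover counting error only.

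Genes named between genotypes were 8 fixed ones (Ptger4, Mt1, Mt2, Reg3b, Reg3g and the 3 other label markers) and, in each direction, those past the threshold without overlap, filled to 5 by the smallest p at a mean of at least 50 CPM. Between classes they were the 15 highest and 10 lowest by median log2 ratio (10 and 10 against enterocytes) with at least 200 CPM and 1 sign in 6 of 6 collections, and for lists up to 4 by level. Other list genes named here were chosen after their values were seen. Predicted, mitochondrial and ribosomal protein genes were left out of the rankings. Promoter stretches are from RefSeq (GRCm38.p6). That of Mt1 is not used here, since its table entry precedes only the most upstream of several starts.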

Additional observations from a re-analysis of the deposited data

Results flagged for a closer look

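The share of kept barcodes that were Reg3-high moved in opposite directions in the 2 sets of collections that share barcodes. In set 1, knockout 1 was 4.70 percentage points above flox 1 and 2 combined. In set 2, knockout 2 and 3 combined differed from flox 3 by -5.11 points. This difference between the sets was not tested, and each set has a single collection of 1 genotype.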

How the results depend on the processing

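Depth limits the genotype test: a member had a median of 1276 counts, and 2546 of 19178 genes passed the filter. The count of 2 genes was 1 with DESeq2, with single collections as samples, with single collections and the collection number as a replicate block, at 600 or more genes, at a Reg3 limit of 5%, after thinning to 500 counts and without the barcode richest in Rn7sk, which was added after seeing the data. It was 0 at a Reg3 limit of 2% and 6 with a block for the biological replicate. Leaving out 1 collection gave 0 (without knockout 2) to 15 (without knockout 3), with 4 without flox 3. The last 2 values, like all those below without knockout 3 or flox 3, have 1 sample in an arm, which is assumed to vary like the 2 of the other genotype, and they support no call. Same-numbered samples were not treated as paired in the fit used above, since the labels name no pairing. Deviations of same-numbered collections correlated at -0.08, 0.10 and 0.29, against -0.28 to 0.17 for collections of different numbers. Those of the biological replicates correlated at 0.25. Whether the samples were paired cannot be told from so few values.

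Interaction calls were 1 without the low-count filter and 0 to 8 on leaving out a collection, with 8 without knockout 3. Leaving out a collection moved the share difference between -2.56 and 1.16 points and the Reg3b share difference between -2.52 and 0.386, both reversed without flox 3, and the latter was 0.0312 at a Reg3 limit of 5%. The cause was not tested.

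Some log2 fold changes that had not passed changed sign. Reg3b was 0.0458 with single collections, 0.0451 with the collection number block and 0.0128 at a Reg3 limit of 2%. Reg3g was -0.0476 at a limit of 5% and -0.0349 after thinning. Car4 was 0.0042 at 2% and 0.27 at 5%. Lgals3 was 0.11 at 5%, 0.0186 after thinning and 0.0195 with the barcode-sharing set as a term, which was added after seeing the data. Leaving out a collection gave -0.13 to 0.17 for Reg3b, -0.56 to 0.44 for Lgals3 and -0.56 to 3.42 for Mt2, reversed without knockout 3 in each, without flox 3 for Reg3b (0.16) and without knockout 1 for Lgals3 (0.02). Mt1 kept its direction in 21 alternatives (1.997 to 2.81). Areg passed without the low-count filter, with the biological replicate block (-1.67, adjusted p = 0.00158) and with the set as a term (-2.31). Ndufaf2 passed with that block (1.52, adjusted p = 0.0374). Both also passed with the 1 knockout sample left without knockout 3. Both p-values are from edgeR's quasi-likelihood test. The count of 182 genes higher in the members was 144 to 218 in 12 settings.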
